A study of Danio rerio with 14 samples.

Results

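Embryos of unexposed zebrafish parents were collected at 2 broods, and the authors' control values of the later brood were set against those of the earlier brood, gene by gene. The series compares F1 embryos of AB wild type fish whose parents had or had not received gamma radiation during gametogenesis, and messenger RNA was sequenced from whole embryos at 5.5 hours post fertilization. The later control group (Control 1 yr, 3 libraries) came from unexposed parents bred again after 1 year. The earlier one (Control 0 yr, 2 libraries, after 1 sample was lost during RNA extraction) came from unexposed parents bred 1 month after the time of exposure. These are 5 of the 14 libraries in the series. Embryos of parents exposed at 8.7 mGy/h, with 3 libraries at each brood, are given beside the controls, because they share no library with them. Levels at 53 mGy/h (3 libraries, 0 yr brood only) are shown for a few genes.

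Each library was made from 1.5 µg of total RNA of 100 pooled embryos by poly(A) selection, without a record of strand, and read as 150 bp paired ends, per the labels. The labels do not tie a library to particular parents, clutches or breeding days. Parental age, the exact stage reached at collection, and the batch of breeding, RNA extraction or sequencing change together between the broods and cannot be told apart. The deposited tables hold 1 value per group and gene and no value per library, so no spread between libraries can be given and no test of a difference was possible. All levels are the authors' RPM (reads scaled to library size), and all differences are Control 1 yr minus Control 0 yr on the log2 scale unless another pair of groups is named. The broods stand in separate tables, and whether any further normalisation was done per table is not given in the sources used here.

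At this age the zebrafish embryo stands at the onset of gastrulation. Its early cell cycles run on messenger RNA laid down in the egg, and these maternal transcripts are then cleared while the embryo's own genome is switched on. The blastoderm at this time is covered by the enveloping layer, a flat outer epithelium rich in keratins, and rests on the yolk syncytial layer, a nucleated layer at the yolk surface that signals to the margin and handles yolk lipid. Cells of the margin form mesoderm and endoderm under Nodal, FGF and Wnt signals, and a BMP gradient sets the dorsoventral axis.

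A total of 12171 genes were listed in the tables of both broods, and 12167 of them reached 1 RPM in at least 1 of the controls. Of these, 376 (3.09%) were at least 2-fold higher and 652 (5.36%) at least 2-fold lower in Control 1 yr. The median difference of all genes was -0.20, the standard deviation across genes was 0.57, and the central 95% of genes lay between -1.22 and 1.097. Taken relative to that median, the split turned to 543 genes at least 2-fold higher (4.46%) and 315 at least 2-fold lower (2.59%), so whether more genes were higher or lower depends on where zero is set. Gene lists below are therefore given with their median and with that median relative to all genes.

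The distance between the control broods was larger than that between the 8.7 mGy/h and control groups of the earlier brood, and smaller than that between its 53 and 8.7 mGy/h groups, where the standard deviation across genes was 1.101 and 14.3% of genes were at least 2-fold higher and 12.9% at least 2-fold lower. Embryos of parents exposed at 8.7 mGy/h and controls, both of the 0 yr brood and in the same table, differed with a standard deviation across genes of 0.25, and 30 genes (0.247%) were at least 2-fold higher and 31 (0.255%) at least 2-fold lower in the exposed group. The same pair of groups lay further apart in the 1 yr brood, with a standard deviation of 0.46. There, 64 genes (0.526%) were at least 2-fold higher and 587 (4.82%) at least 2-fold lower in the exposed group. In genes of more than 100 RPM the standard deviation was 0.40 between the control broods and 0.15 between the groups of the 0 yr brood, and in genes under 2 RPM it was 0.56 and 0.38. Depth recovered from the deposited values was at least 27.7 M reads (megareads) (geometric mean over libraries) for Control 0 yr and 22.6 M for Control 1 yr. At that depth, counting alone gives a standard error of a log2 difference of at most 0.261 at 1 RPM, 0.0826 at 10 RPM and 0.0261 at 100 RPM. This covers counting error only and leaves out the spread between embryos, clutches and library preparations.

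**Figure D1:**
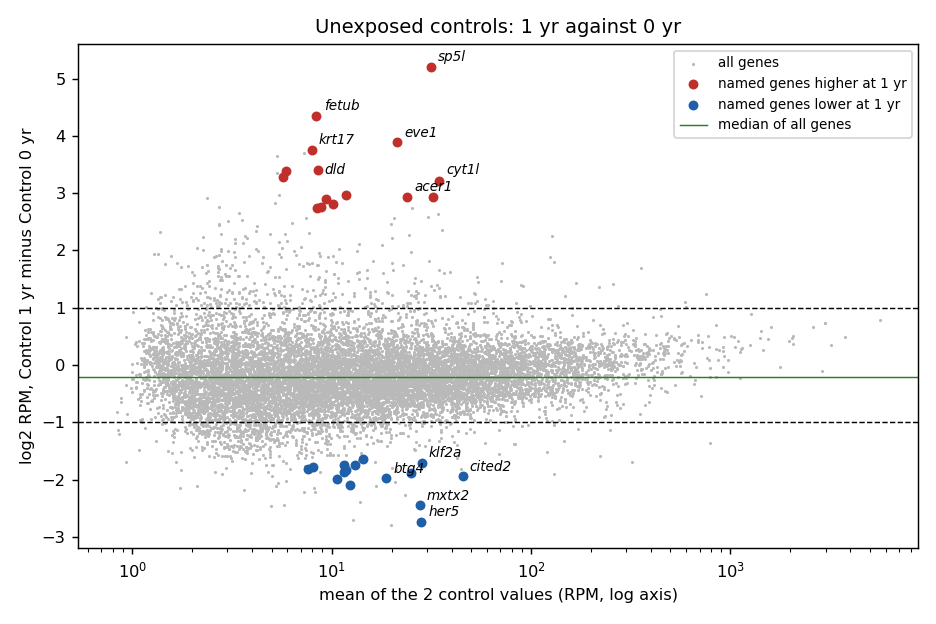
Difference between the control broods (log2 RPM, Control 1 yr minus Control 0 yr) against the mean of both control values (RPM, log axis) for 12167 genes, with the 15 named genes in each direction in colour, the 2-fold limits dashed and the median of all genes, -0.20, as a solid line. The named genes higher at 1 yr reach 5.20 and those lower at 1 yr reach -2.74.

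The largest positive differences among named genes at 10 RPM or more included genes of the margin, the enveloping layer and the yolk syncytial layer. sp5l (ENSDARG00000010124, chromosome 23, 28096555 to 28099402, GRCz10), a zinc finger transcription factor and Wnt target of the early mesoderm, stood at 1.66 RPM in Control 0 yr and 61.3 RPM in Control 1 yr, a difference of 5.20 with a counting error of at most 0.15. In the 8.7 mGy/h groups it stood at 3.33 RPM at 0 yr and 81.6 RPM at 1 yr. The control and 8.7 mGy/h groups of the earlier brood were thus low and those of the later brood high, without overlap. eve1 (chromosome 3, 23511387 to 23513282), a homeobox gene of the ventral and posterior margin, went from 2.69 RPM in Control 0 yr to 40.1 RPM in Control 1 yr, and from 4.72 to 66.5 RPM at 8.7 mGy/h. dld, the Notch ligand DeltaD, went from 1.47 to 15.5 RPM in the controls and from 1.81 to 33.2 RPM at 8.7 mGy/h.

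Among the other genes at this end were fetub, which encodes the secreted protein fetuin B (0.78 to 16.0 RPM), apoc2, an apolipoprotein that activates lipoprotein lipase (1.03 to 10.7 RPM), and tfec, a transcription factor of the MITF family (1.06 to 10.3 RPM). The keratin genes krt17 (1.09 to 14.8 RPM), cyt1l (6.75 to 62.5 RPM) and cyt1 (7.41 to 56.9 RPM) stood with them. These keratin genes and krt92 lie at overlapping positions on chromosome 19, and the libraries do not mark the strand, so how reads divide among them is uncertain. Genes for cell contact and guidance were cdh6, a cadherin (2.20 to 16.5 RPM), efnb2a, an ephrin ligand (2.55 to 17.9 RPM), and pcdh8, a protocadherin of the paraxial mesoderm (2.28 to 15.4 RPM). The remaining 3 of the 15 were slc39a5, a zinc transporter, acer1, a ceramidase, and slco1d1, an organic anion transporter, with differences of 2.97, 2.93 and 2.75. All 15 were also at least 2-fold higher at 1 yr than at 0 yr in the 8.7 mGy/h groups, against 4.08% of all genes.

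Among named genes at 10 RPM or more, the 15 largest negative differences were smaller in size, from -1.63 to -2.74. Genes with clone or placeholder names are left out here. They made up 10 of the 15 largest negative differences when all genes at that level were ranked. her5 (ENSDARG00000008796, chromosome 14, 30202676 to 30204352, GRCz10), a transcriptional repressor of the Hairy/E(spl) family, stood at 49.0 RPM in Control 0 yr and 7.36 RPM in Control 1 yr, a difference of -2.74 with a counting error of at most 0.07. At 8.7 mGy/h it stood at 31.4 RPM at 0 yr and 4.88 RPM at 1 yr. mxtx2 (chromosome 12, 29121372 to 29122913), a homeobox gene that acts in the yolk syncytial layer before gastrulation, went from 46.8 to 8.58 RPM in the controls and from 39.6 to 12.4 RPM at 8.7 mGy/h. In both genes the control and 8.7 mGy/h groups of the 0 yr brood lay above those of the 1 yr brood, while mxtx2 at 53 mGy/h 0 yr stood at 11.2 RPM, below 8.7 mGy/h 1 yr.

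Oocyte genes stood among the lowest named genes as well. btg4, known in the mouse as an adaptor in the clearance of maternal messenger RNA, went from 29.9 to 7.60 RPM, and bmp15, a growth factor of the oocyte, from 11.9 to 3.36 RPM. The transcriptional regulators cited2 (71.9 to 18.8 RPM), klf2a (43.3 to 13.3 RPM) and tsc22d3 (20.1 to 4.71 RPM) were lower too. So were lpar3, a receptor for lysophosphatidic acid (18.4 to 5.15 RPM), cyp24a1, which breaks down vitamin D (12.5 to 3.64 RPM), and st8sia1, a sialyltransferase of ganglioside synthesis (17.7 to 5.32 RPM). SUN1 (2 of 2), fam65c, cyp2aa9, rundc3ab and pja2 completed the 15 named genes, with differences of -1.997, -1.88, -1.86, -1.75 and -1.63. All 15 were lower at 1 yr in the 8.7 mGy/h groups, 13 of them at least 2-fold. Over all genes in those groups 15.3% were at least 2-fold lower, and the median was -0.33. The exceptions were tsc22d3, with -0.92, and cyp2aa9, with -0.48.

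**Figure D2:**
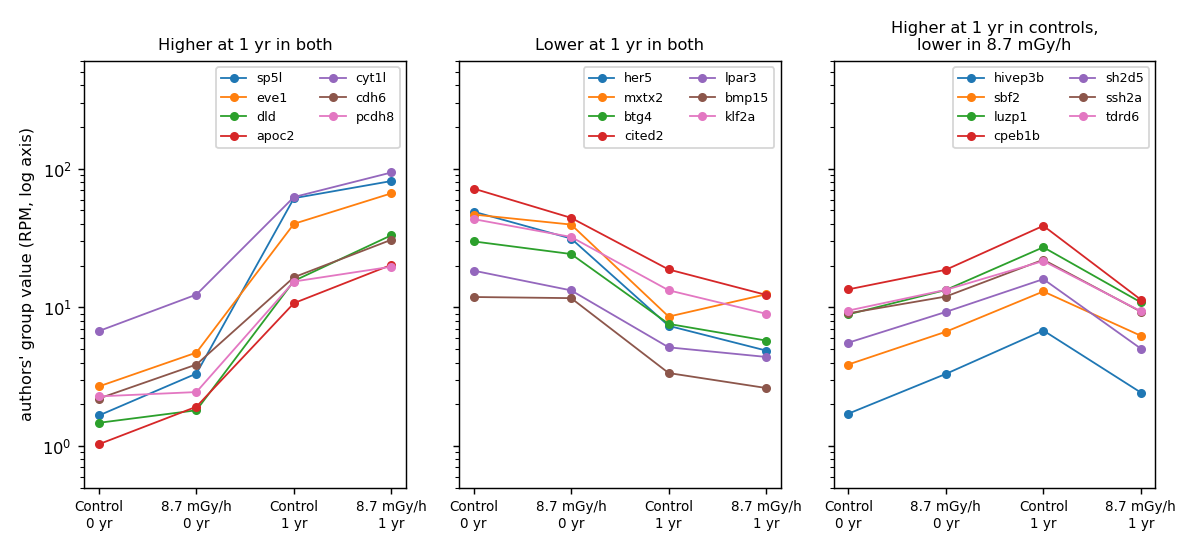
Authors' group values (RPM, log axis) of 7 genes in each panel, in the order Control 0 yr, 8.7 mGy/h 0 yr, Control 1 yr and 8.7 mGy/h 1 yr, with lines joining the values of a gene. In the left and middle panels both 0 yr groups shown lie on one side of both 1 yr groups, and in the right panel, whose genes were picked for this shape, Control 1 yr is the highest of the 4 values. The 53 mGy/h 0 yr group is not shown. In that group lpar3, at 1.72 RPM, lay below both 1 yr groups, and btg4, at 39.25 RPM, above both.

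Of 38 measured genes of the enveloping layer, 16 were at least 2-fold higher in Control 1 yr and 1 at least 2-fold lower, against 3.09% and 5.36% of all genes. The list's median was 0.79, and 1.00 relative to all genes. The keratin genes krt4 (376.8 to 811.3 RPM), krt5 (168.2 to 546.5 RPM) and krt92 (53.1 to 196.6 RPM) were among them. Among the higher members were also 4 genes of the desmosome and the filaments tied to it, picked out after their values were seen. dspa, the desmoplakin gene, went from 16.6 to 52.6 RPM, pkp3a, a plakophilin, from 6.65 to 20.3 RPM, dsc2l, a desmocollin, from 4.42 to 12.8 RPM, and ppl, the periplakin gene, from 39.6 to 81.7 RPM. The list was not uniform. klf17, a transcription factor of this layer, had 82.3 RPM in Control 0 yr and 80.6 RPM in Control 1 yr, and the grainyhead genes grhl1 and grhl3 had 30.5 and 25.1 RPM and 169.3 and 86.2 RPM. Summed over the 8 defining markers of the layer, the level was 1194 RPM at 0 yr and 2527 RPM at 1 yr. In whole embryos, fewer cells of a type and less RNA per cell cannot be told apart.

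Of 19 measured genes of the yolk syncytial layer, 5 were at least 2-fold higher and 2 at least 2-fold lower (all genes 3.09% and 5.36%), with a median of 0.28 (0.48 relative to all genes). Besides fetub and apoc2, the higher ones were cebpa, a transcription factor (4.96 to 13.5 RPM), gata6, a GATA factor also counted in mesoderm and endoderm (50.5 to 132.0 RPM), and slc26a1, an anion transporter (11.5 to 24.3 RPM). The lower ones were mxtx2 and slc16a3, a monocarboxylate transporter (343.2 to 157.2 RPM). mxtx1, a relative of mxtx2 in the same layer, differed little, with 31.9 RPM at 0 yr and 36.7 RPM at 1 yr. apoeb, an apolipoprotein gene strongly expressed there, had 299.8 and 591.6 RPM, just under 2-fold.

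Mesoderm and endoderm genes were higher at least 2-fold in 7 of 24 measured members and lower in 0 (all genes 3.09% and 5.36%), with a median of 0.43 (0.63 relative to all genes). ta, the zebrafish brachyury gene and a marker of the margin and notochord, went from 44.4 to 211.2 RPM in the controls and from 59.8 to 280.1 RPM at 8.7 mGy/h. The endoderm regulators sox32 (22.4 to 52.0 RPM), gata5 (21.2 to 49.0 RPM) and foxa2 (3.34 to 7.85 RPM) and the mesoderm gene osr1 (7.24 to 22.8 RPM) were the others beside eve1 and gata6. Other genes of the margin and organizer differed less than 2-fold. mixl1 had 64.2 RPM at 0 yr and 111.3 RPM at 1 yr, the Nodal ligand ndr2 8.98 and 13.1 RPM, and gsc 17.0 and 21.3 RPM. tbx16 had 428.9 RPM at 0 yr and 541.0 RPM at 1 yr, the Nodal ligand ndr1 8.18 and 7.14 RPM, noto 39.3 and 30.1 RPM, the BMP antagonist chd 92.1 and 83.3 RPM, and tdgf1, the Nodal co-receptor, 172.4 and 102.5 RPM. Differences of margin genes of the same group of markers thus ranged from -0.38 for noto to 2.25 for ta, a range far wider than their counting error. That error leaves out the spread between libraries, which cannot be given here.

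Genes of dorsoventral patterning and signal feedback numbered 54, of which 11 were at least 2-fold higher and 1 at least 2-fold lower (all genes 3.09% and 5.36%), with a median of 0.39 (0.59 relative to all genes). Ligands and inhibitors among the higher ones were bmp4 (3.53 to 11.9 RPM) and frzb, a secreted Wnt inhibitor (0.76 to 2.61 RPM). FGF feedback and target genes were spry1 (2.02 to 8.94 RPM), dusp6 (31.0 to 66.1 RPM) and etv4 (53.8 to 114.5 RPM). Transcription factors were lhx1a of the organizer and margin (6.08 to 33.5 RPM), ved, a ventral repressor (90.5 to 244.5 RPM), and tfap2c of the non-neural ectoderm (14.9 to 41.2 RPM), with otx1a and krt8, the latter also counted in the enveloping layer. The lower one was dact1, a modulator of Wnt signalling (13.6 to 5.30 RPM), which stood at 8.83 and 7.28 RPM at 8.7 mGy/h. The next lowest member at 5 RPM or more was admp, with a difference of -0.98, just under 2-fold. The higher members thus included the ventral genes bmp4 and ved and lhx1a of the organizer and margin, but other such genes differed less or went the other way. The ventral genes vox and vent differed by -0.09 and 0.36. Of the margin and organizer genes given above, gsc, chd and noto differed by 0.33, -0.15 and -0.38.

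Ectoderm and neural genes split. Of 15 measured, 4 were at least 2-fold higher and 2 lower (all genes 3.09% and 5.36%), with a median of 0.25 (0.45 relative to all genes). Among members at 5 RPM or more the median was 0.041. sox3, a SoxB1 factor of the early neural ectoderm, had 123.6 RPM in Control 0 yr and 316.3 RPM in Control 1 yr, and cdh2, the N-cadherin gene, had 16.0 and 38.3 RPM. sox11a went the other way, with 209.0 RPM at 0 yr and 83.6 RPM at 1 yr, as did her5. Of 48 genes of gastrulation movements, 7 were at least 2-fold higher and 0 lower (all genes 3.09% and 5.36%), and the list's median of -0.01 turned to 0.19 relative to all genes. Beside efnb2a, pcdh8 and cdh2, the higher ones were celsr1a (1.98 to 9.66 RPM), fzd2 and fzd3a, which act in planar cell polarity and Wnt reception, and pcdh18b (2.37 to 8.79 RPM).

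**Figure D3:**
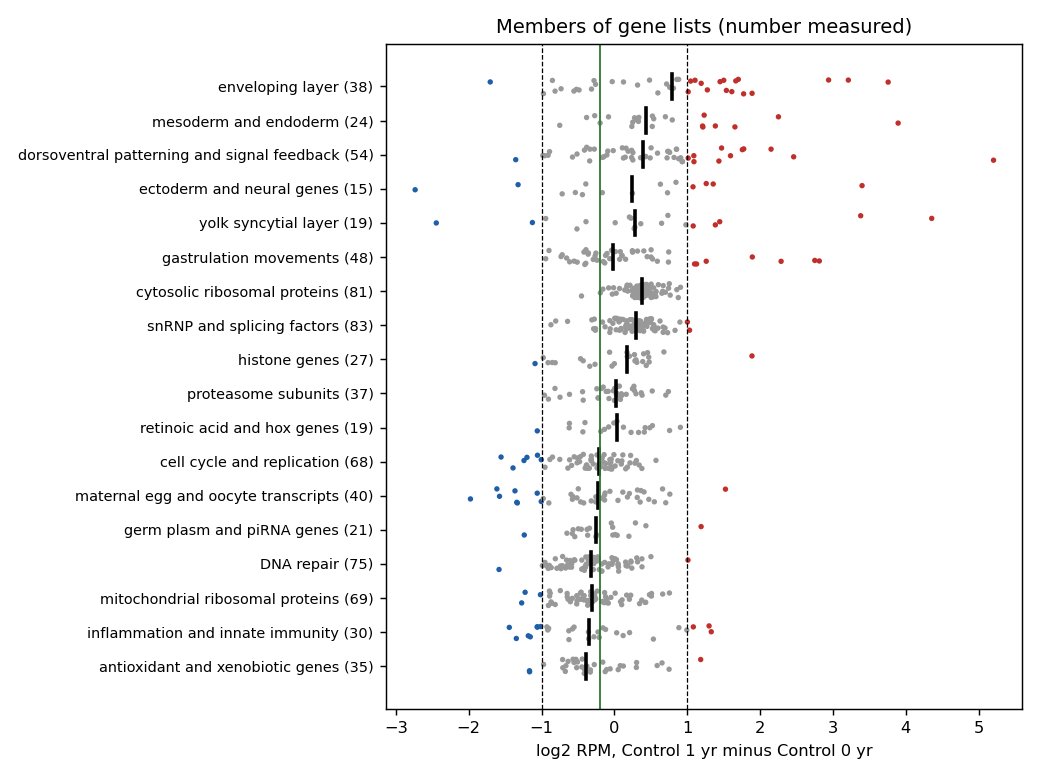
Difference between the control broods (log2 RPM, Control 1 yr minus Control 0 yr) for each measured member of 18 gene lists, with the number measured in parentheses. Red and blue points are at least 2-fold higher and lower, black bars are list medians and the green line is the median of all genes at -0.20, and the enveloping layer has the highest list median, 0.79.

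The list of maternal transcripts had a median close to that of all genes. Of 40 genes deposited in the egg or active in the oocyte, 8 were at least 2-fold lower and 1 at least 2-fold higher, against 5.36% and 3.09% of all genes, and the median of -0.22 was -0.02 relative to all genes and turned to 0.03 when each gene was compared with genes of like level. nanog, a maternal activator of the zygotic genome, had 1138 RPM in Control 0 yr and 441.7 RPM in Control 1 yr, the widest difference in RPM on the list's lower side. The claudin genes cldng (64.2 to 21.0 RPM) and cldnd (121.6 to 58.3 RPM) were lower. So were mos, a kinase of meiotic arrest (4.86 to 1.93 RPM), wee2, an oocyte kinase that inhibits Cdk1 (173.7 to 86.6 RPM), and zar1l, a relative of the zygote arrest gene (16.1 to 5.39 RPM). The higher one was cpeb1b, a regulator of cytoplasmic polyadenylation (13.5 to 38.8 RPM), which at 8.7 mGy/h was lower at 1 yr (18.7 to 11.4 RPM).

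Of 21 genes of germ plasm and piRNA biology, 1 was at least 2-fold higher (tdrd6, a Tudor domain protein of the germ plasm) and 1 at least 2-fold lower (ca15b). These counts are near the shares of all genes, 3.09% and 5.36%. The list's median was -0.25 (-0.05 relative to all genes). ddx4, the vasa gene, had 124.3 RPM at 0 yr and 167.7 RPM at 1 yr. The germ cell markers nanos3 (11.5 and 8.92 RPM), dnd1 (14.6 and 12.2 RPM) and dazl (10.6 and 7.53 RPM) differed less than 2-fold. Over the 5 measured of 6 germ cell markers, the summed level was 181.9 RPM at 0 yr and 205.2 RPM at 1 yr. Of these markers only ddx4 was higher, and their median difference was -0.37.

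Sets of related genes were compared within themselves. Some pair a maternal with a zygotic form and others are paralogues without such a split. In 5 of 18 sets, members lay at least 1 log2 unit apart in their difference. ccne1, the cyclin E1 gene, had 477.4 RPM at 0 yr and 306.5 RPM at 1 yr, while ccne2 had 73.9 and 96.0 RPM. slbp, which binds histone messenger RNA, had 126.1 and 166.5 RPM, and its relative slbp2 10.4 and 5.30 RPM. The other sets were zar1 (21.1 and 15.3 RPM) with zar1l, the poly(A) binding proteins pabpc1a (834.3 and 1182 RPM), pabpc1b (10.2 and 7.95 RPM) and pabpc1l (54.0 and 36.4 RPM), and the Hsp90 genes. hsp90ab1 had 932.6 and 1252 RPM, hsp90aa1.2 14.5 and 11.7 RPM, and hsp90aa1.1 1.08 and 1.90 RPM. The latter 2 overlap in position on chromosome 20, and the libraries do not mark the strand, so how reads divide between them is uncertain. At 8.7 mGy/h hsp90aa1.2 went the other way, from 9.23 to 37.7 RPM.

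Genes of cytosolic ribosomal proteins differed by less than 2-fold but nearly all to the same side. Of 81 cytosolic ribosomal protein genes, 80 lay above the median of all genes and 75 had a difference over 0, with a list median of 0.38 (0.59 relative to all genes), and 0 were 2-fold higher or lower. rplp0, a protein of the ribosomal stalk, had 113.3 RPM at 0 yr and 207.9 RPM at 1 yr, and faub, the lowest of the list, 37.01 and 27.05 RPM. eef1a1l1, which encodes elongation factor 1-alpha and was named among the paralogue genes of its list, stood at 4139 and 7143 RPM. Of 83 splicing factors and snRNP proteins, 75 lay above the median of all genes and 2 were 2-fold higher, snrpf (13.1 to 26.8 RPM) and hnrnpul1 (42.8 to 85.7 RPM), with a list median of 0.29 (0.50 relative to all genes). Median differences over all genes varied with the level of expression, with -0.14 under 2 RPM, -0.30 at 2 to 5 RPM and 0.03 over 100 RPM, and relative to genes of like level the list medians were 0.42 for ribosomal proteins and 0.31 for splicing factors, an alternative chosen after seeing the data. The 69 mitochondrial ribosomal protein genes stood on the other side of zero, with a median of -0.30 (-0.10 relative to all genes) and 3 at least 2-fold lower. Over all genes 3.09% were at least 2-fold higher and 5.36% lower, the shares for each count in this paragraph. All 13 transcripts encoded in mitochondrial DNA were lower, between -0.05 and -0.52, and their median of -0.16 turned to 0.05 relative to all genes.

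Cell cycle and replication genes had 6 of 68 at least 2-fold lower, against 5.36% of all genes, and 0 higher, with a median of -0.22 (-0.01 relative to all genes). rrm2, a subunit of ribonucleotide reductase, had 102.7 RPM in Control 0 yr and 34.9 RPM in Control 1 yr but 33.4 and 59.6 RPM at 8.7 mGy/h, so its groups overlapped between broods. mycn had 61.3 and 23.4 RPM in the controls and 50.7 and 22.5 RPM at 8.7 mGy/h. Of 27 histone and histone-handling genes, 1 was 2-fold higher, h2afy, a macroH2A gene (4.09 to 15.2 RPM), and 1 lower, the chaperone gene asf1bb (2.96 to 1.39 RPM). The shares of all genes for each list in this paragraph were 3.09% higher and 5.36% lower. Chromatin and DNA methylation genes had 1 of 80 higher and 2 lower, and their median of -0.19 was 0.01 relative to all genes, on the other side of zero. The Polycomb gene bmi1b (15.3 to 6.39 RPM) and the methyltransferase gene setdb1a (38.5 to 19.1 RPM) were the lower ones.

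Stress and damage genes, a baseline for the study's question of exposure, are read against 3.09% of all genes higher and 5.36% lower. Of 75 DNA repair genes, 1 was at least 2-fold higher (atm, 2.35 to 4.73 RPM) and 1 lower (apex2, 4.37 to 1.46 RPM), with a median of -0.32 (-0.11 relative to all genes). At 8.7 mGy/h atm was instead lower at 1 yr (2.84 to 2.47 RPM). Of 36 genes of the p53 pathway, 3 were higher, gadd45ga (1.62 to 5.63 RPM), tp53inp2 (15 to 34.8 RPM) and sesn3 (40.7 to 88.7 RPM), and 3 lower, gadd45aa, sesn2 and isg15, and the median of -0.20 was 0.0034 relative to all genes. Apoptosis genes had 1 of 29 higher, diabloa, and 0 lower. Of 50 heat shock and unfolded protein response genes, hspb1, a small heat shock protein gene, was 2-fold higher (446.4 to 1055 RPM) and dnajc3a 2-fold lower. Antioxidant and xenobiotic genes had a median of -0.39 (-0.19 relative to all genes) over 35 members, with nqo1 higher (6.37 to 14.5 RPM) and prdx6, a peroxiredoxin gene (49.2 to 21.9 RPM), and mt2, a metallothionein gene (17.7 to 7.90 RPM), lower. The 3 members of the p53 pathway in each direction lay above the shares of all genes, but these are few genes. Of the lower ones, sesn2 (-1.05) and isg15 (-1.01) lay close to the 2-fold limit. At 8.7 mGy/h 3 members of the pathway were higher and 0 lower, against 4.08% and 15.3% of all genes.

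Inflammation and innate immunity genes had 7 of 30 at least 2-fold lower and 3 higher. Both lay above the shares of all genes, 5.36% lower and 3.09% higher. The list's median was -0.36 (-0.15 relative to all genes), and -0.56 among members at 5 RPM or more. The NF-kappaB subunit genes nfkb1 (12.9 to 6.17 RPM), nfkb2 (15.3 to 6.86 RPM), rel (4.15 to 1.63 RPM) and relb (8.02 to 3.85 RPM) made up 4 of the 7. stat2 (5.73 to 2.11 RPM) and jak2b (12.1 to 5.33 RPM), of cytokine signalling, and isg15 were the others. The higher ones were ptgs2a, a prostaglandin synthase gene (4.37 to 10.8 RPM), stat1a and tnfb. Of these, stat1a was lower at 1 yr at 8.7 mGy/h (1.78 to 1.51 RPM). At 8.7 mGy/h all 4 NF-kappaB genes were lower at 1 yr as well, by -1.37, -0.94, -1.76 and -1.69 in the order given. The whole list there had 6 of 30 members at least 2-fold lower and 3 higher, against 15.3% and 4.08% of all genes. Its median at 8.7 mGy/h was -0.36, and -0.04 relative to all genes.

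The tables themselves list different genes. A total of 331 genes stood only in the 1 yr table and 1092 only in that of the 0 yr brood with 8.7 mGy/h, and both tables list no control below 0.4 RPM. Some genes found only at 1 yr were low in the control and higher in the exposed group. rltgr had 0.40 RPM in Control 1 yr and 1.76 RPM at 8.7 mGy/h 1 yr. Being listed in 1 table only thus does not describe the controls alone. The median control level was 1.29 RPM for genes found only at 1 yr and 1.42 RPM for those found only at 0 yr, and the sets differed at the upper end. Of the genes found only at 1 yr, 13 had 5 RPM or more in Control 1 yr and the highest had 21.2 RPM, while 1 gene found only at 0 yr had 5 RPM or more, figla, an oocyte transcription factor gene, at 7.21 RPM. Members of the segmentation clock led the former, her7 with 21.2 RPM, the Notch ligand gene dlc with 18.0 RPM and her1 with 16.8 RPM. sox2, a SoxB1 factor gene, had 17.8 RPM, aldh1a2, which makes retinoic acid, 8.29 RPM, and cdx4, a caudal homeobox gene, 6.30 RPM. mespab and msgn1, of the presomitic mesoderm, had 5.60 and 4.60 RPM. In all, 9 genes of the mesoderm and endoderm list were listed only at 1 yr and 1, dharma, an organizer gene, only at 0 yr (3.60 RPM). A gene missing from a table has no value there, so no fold is given, and 34 of the 331 genes have a Control 0 yr value in the table with 53 mGy/h, between 0.30 and 1.06 RPM.

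**Figure D4:**
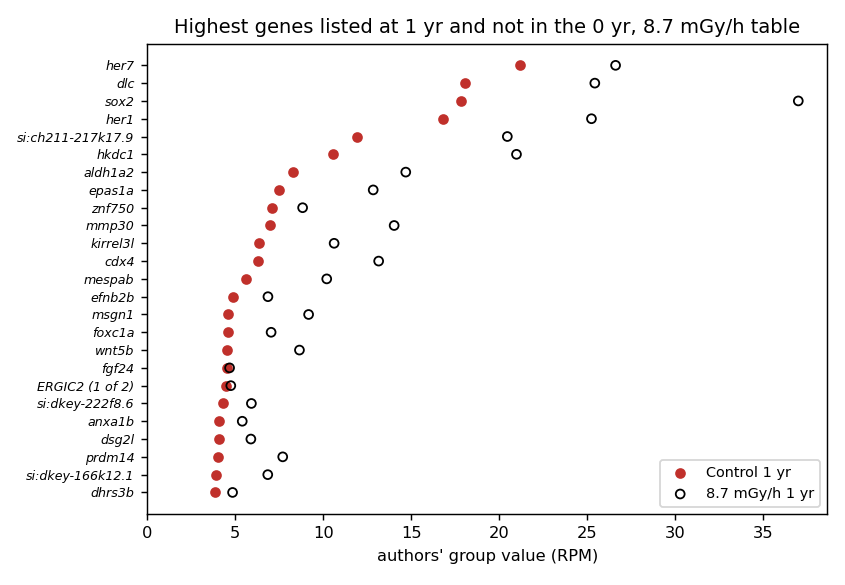
Authors' group values (RPM) of the 25 genes with the highest Control 1 yr value among the 331 listed at 1 yr and not in the 0 yr table with 8.7 mGy/h. Filled points are Control 1 yr and open points 8.7 mGy/h 1 yr, and her7 leads the controls with 21.2 RPM.

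Markers of tissues that form later were checked. No marker of later muscle (0 of 4) or blood (0 of 3) was listed at either brood, and of the later neuron markers elavl3 was listed at 0 yr alone, at 1.13 RPM. Of 38 genes of later tissues, 0 were measured in both broods and 3 were listed only at 0 yr. The oocyte gene zp2.1 had 6.46 RPM at 0 yr and 5.40 RPM at 1 yr, and odf3b, a sperm flagellum gene, 1.77 RPM at 0 yr alone. Markers of the enveloping layer (8 of 8), the margin (9 of 9), ectoderm (3 of 5 at 0 yr and 4 of 5 at 1 yr) and germ cells (5 of 6) were listed at both broods.

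The same difference between broods was taken in the 8.7 mGy/h groups. Their 6 libraries are separate from those of the controls, but the exposed and control groups of a brood share its table and any normalisation applied there. In the 8.7 mGy/h groups, 497 genes (4.08%) were at least 2-fold higher and 1857 (15.3%) at least 2-fold lower at 1 yr, with a median of -0.33. Over 12167 genes, 80.2% had the same direction as in the controls, and 75.9% when each difference was taken relative to its own median. Pearson's r across genes was 0.72, and genes are not independent replicates. Of the 376 genes higher in the controls, 277 (73.7%) were at least 2-fold higher at 8.7 mGy/h, which is 55.7% of the 497. Of the 652 lower ones, 423 (64.9%) were at least 2-fold lower, which is 22.8% of the 1857. The enveloping layer list had 18 members higher and 1 lower in these groups, and a median of 0.93. Mesoderm and endoderm had 6 higher and 0 lower, and a median of 0.55. Other lists lay further apart in these groups. The maternal list had 11 members lower and 0 higher, and its median relative to all genes was -0.37, against -0.02 in the controls. Germ plasm and piRNA genes had -0.38 against -0.05, and circadian clock genes -0.44 against -0.10.

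**Figure D5:**
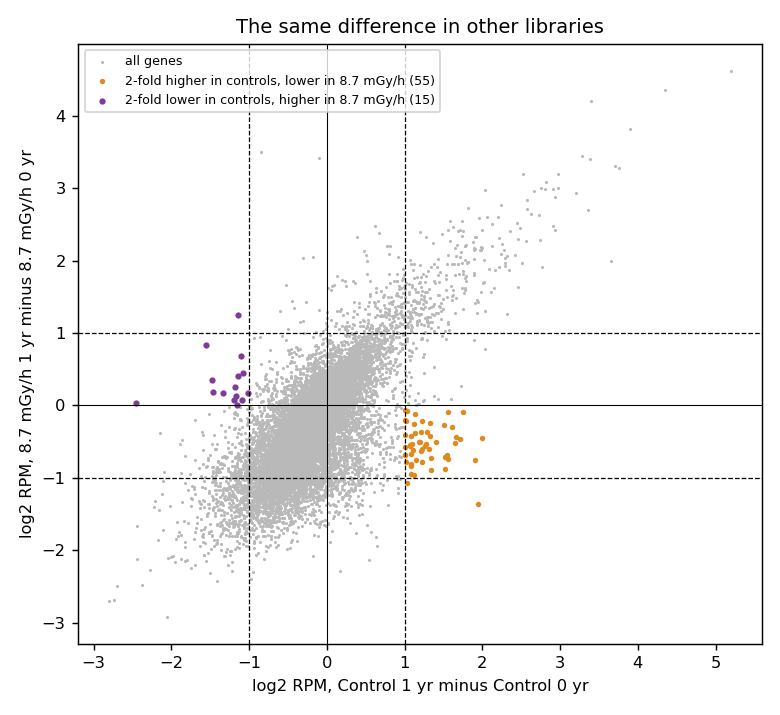
Difference between broods in the 8.7 mGy/h groups (log2 RPM, 1 yr minus 0 yr) against that in the controls, 1 point per gene, with 2-fold limits dashed. Orange points are the 55 genes at least 2-fold higher in controls and lower at 8.7 mGy/h, and purple points the 15 genes with the opposite pattern.

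Of the 376 genes at least 2-fold higher in the controls, 55 were lower at 1 yr at 8.7 mGy/h, by any amount. This group was picked out after the values were seen. The median difference of all genes at 8.7 mGy/h was -0.33. Choosing genes this way sets part of the order of the control and 8.7 mGy/h values below. luzp1, a leucine zipper gene, stood at 8.90 RPM in Control 0 yr, 13.4 RPM at 8.7 mGy/h 0 yr, 27.15 RPM in Control 1 yr and 10.9 RPM at 8.7 mGy/h 1 yr. tdrd6, in the same order, stood at 9.48, 13.4, 21.6 and 9.38 RPM, and sbf2 at 3.87, 6.67, 13.0 and 6.24 RPM. Control 1 yr was the highest of the 4 groups in all 3. At 53 mGy/h 0 yr, luzp1 stood at 96.7 RPM, tdrd6 at 79.7 RPM, sbf2 at 41.2 RPM and cpeb1b at 88.8 RPM, above every other group. The median level of the group was 2.52 RPM in Control 0 yr, 3.89 at 8.7 mGy/h 0 yr, 23.5 at 53 mGy/h 0 yr, 6.70 in Control 1 yr and 2.73 at 8.7 mGy/h 1 yr. For the 277 genes higher in both, the medians in that order were 2.89, 3.80, 1.36, 11.1 and 15.9 RPM. The medians at 53 mGy/h cover the genes with a value there, 54 of the 55 and 252 of the 277. These levels come from separate tables and are set side by side as a description. The opposite pattern, again by any amount at 8.7 mGy/h, held for 15 of the 652 lower genes. Among them were rrm2 and prkcba, a protein kinase C gene. The latter had 8.42 and 1.53 RPM in the controls and 4.32 and 4.43 RPM at 8.7 mGy/h.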

How the data were processed

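The authors deposited 3 tables, each with 1 exposed group, its control and 1 value per group and gene. Levels are the authors' log2 RPM and RPM (reads relative to the size of the library), as the file headers state. The deposited ratio of exposed to control, the signed fold change score and the FDR, which the file headers give as an adjusted p-value, concern exposure and were not used. Per the submitters' processing notes, the genome build was GRCz10 and the tools were DESeq2, STAR 2.5.2b, FastQC 0.11.5 and Trim Galore 0.4.2; their roles and settings are not given in the sources used here.

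The 1 yr and 0 yr tables with 8.7 mGy/h were joined on gene identifier, and the control log2 RPM of the 0 yr table was subtracted from that of the 1 yr table. A gene counted as higher or lower at a difference of at least 1 (2-fold) with the higher control at 1 RPM or more. The count test planned for library counts could not be run, because the tables hold 1 value per group. Named genes are the 15 largest differences each way at 10 RPM or more with a gene name, the 2 most raised and 2 most lowered of a list at 5 RPM or more, diverging paralogues and cell type markers. Placeholder names were left out of the first of these. They made up 1 of the 15 largest positive and 10 of the 15 largest negative differences at 10 RPM or more. Further members at least 2-fold apart, and other genes named to fill out a list or group, were chosen after their values were seen. The members and the 33 lists were chosen with earlier results of these data known, and some genes stand in more than 1 list.

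Depth was taken as the smallest for which each group's 150 lowest values at or above 0.4 RPM give whole products of reads (100% within 0.04). RPM summed over listed genes came to 48.6% of the full RPM scale in Control 0 yr and 48.5% in Control 1 yr. What made up the rest of the scale is not given. Control 0 yr was identical in both 0 yr tables over 13197 shared genes. Symbols altered to dates in the deposited tables numbered 11 and stayed under their identifiers. Steps used Python 3.11.15, numpy 2.4.6, pandas 2.3.3 and matplotlib 3.10.9. Simulated counts with planted changes were used to check the 2-fold call only. They held counting error and no spread between libraries, and the other steps were not checked this way. Alternatives changed centring, filter, pseudocount, scaling, fold and the table of the control.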

Additional observations from a re-analysis of the deposited data

How the results depend on the processing

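The number of genes at least 2-fold higher or lower depended on centring, pseudocount and fold. The count of lower genes, 652, was 315 relative to the median of all genes, 389 relative to genes at 10 RPM or more and 263 relative to genes of like level, an alternative chosen after seeing the data. With log2(RPM + 2) the counts were 191 higher and 176 lower. At 1.5-fold they were 822 and 2500, and at 3-fold 136 and 78. The share of genes with the same direction at 8.7 mGy/h, 80.2%, was 75.9% with each difference centred, 76.3% centred on genes at 10 RPM or more, 74.96% centred within level, 79.2% without the top genes and 82.5% at 5 RPM or more. None of the 269 values of the 30 named genes reversed. These genes were picked as the largest differences, at least 1.63 in size, so this is no measure of stability.

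Of 288 list medians, 24 in 11 lists reversed, and the cause was not tested. Relative to the median of all genes these were hypoxia and glycolysis 0.15, p53 pathway 0.0034, chromatin 0.0089, gastrulation movements 0.19, aminoacyl-tRNA synthetases 0.14, nuclear respiratory chain 0.088, mitochondrially encoded transcripts 0.047, solute carriers 0.038 and zinc finger genes 0.055. Relative to genes at 10 RPM or more they were hypoxia 0.10, gastrulation 0.14, synthetases 0.10, respiratory chain 0.040 and zinc finger genes 0.0069. Without the top genes gastrulation was 0.017. Relative to genes of like level they were oocyte transcripts 0.030, hypoxia 0.11, p53 0.0057, gastrulation 0.039, polymorphic immune families 0.021, synthetases 0.085, respiratory chain 0.13, solute carriers 0.014 and zinc finger genes 0.073.

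No paired analysis was possible because the tables hold 1 value per group, which also kept libraries from being left out in turn. Counting error is largest at low levels, and 138 of the higher and 286 of the lower genes had a mean of 2 to 5 RPM.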

Other observations

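Solute carriers formed the largest list, with 11 of 172 members at least 2-fold higher in Control 1 yr and 7 lower. Over all genes 3.09% were higher and 5.36% lower, the shares against which each count here is read. slc30a8, a zinc transporter gene like slc39a5, had 1.66 RPM in Control 0 yr and 8.14 RPM in Control 1 yr, and slc5a6b, a vitamin transporter gene, had 10.2 and 3.83 RPM. Of 22 circadian clock genes, 0 were higher and 1 lower, per2, a light-responsive clock gene, with 12.8 and 6.30 RPM. Of 27 hypoxia and glycolysis genes, 3 were higher and 2 lower. The hexokinase genes went apart: hk1 had 1.1 and 4.04 RPM, hk2 had 19.9 and 9.23 RPM, and hkdc1 was listed only at 1 yr, at 10.6 RPM. Zinc finger genes had 5 of 98 higher and 2 lower, with znf185 at 27.7 and 79.8 RPM. Of 19 retinoic acid and hox genes, 1 was lower, stra6, the retinol-binding protein receptor gene (6.23 and 2.99 RPM). Proteasome subunits (37) and aminoacyl-tRNA synthetases (20) had 0 members 2-fold apart. Nuclear respiratory chain genes had 2 of 72 lower. Of 7 adult gonad, sperm and blood genes, 1 was lower, bmp15, and the list's median of -0.25 was -0.78 at 5 RPM or more.

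Genes of polymorphic immune families, which vary between fish, had 1 of 30 higher, btr30 (3.52 and 13.7 RPM), and 3 lower, trim35-29, btr18 and mhc1zea. The shares of all genes were 3.09% higher and 5.36% lower. On chromosome 4 between 30 and 70 Mb, a window chosen after seeing the data, 42 of 284 genes were at least 2-fold lower (14.8%) and 1 was higher, against 12 of 392 lower on the rest of the chromosome. All 42 carry clone or placeholder names, as do 276 of the 284, and 25 of the 42 were also 2-fold lower at 8.7 mGy/h. In the 8.7 mGy/h groups 31 of the 284 were lower at 1 yr, a smaller share than the 15.3% of all genes. The window's median difference was -0.08 in the controls, against -0.20 for all genes. At 8.7 mGy/h it was 0.10, against -0.33 for all genes. On the whole of chromosome 4, 9.76% of 676 genes were lower there. An example is BX927193.1, with 23.2 RPM in Control 0 yr and 4.45 RPM in Control 1 yr. The share of lower genes per nuclear chromosome was highest on chromosome 9 (8.53%) and lowest on chromosome 11 (2.46%). The median span from gene start to end was 18064.5 bp in higher, 16261 bp in lower and 17507 bp in all genes.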
